A study of Rattus norvegicus with 8 samples.

Results

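The kininogens Kng1 and Kng2, the kinin receptors Bdkrb1 and Bdkrb2 and the peptidase gene Ace were followed in rat lung under hypobaric hypoxia. The members were chosen by gene name, with their ratios of hypoxia over 0 h already in view, so those ratios are given below as a description and carry no test. By the names printed in the files, 7 of 41012 probes and 4 names were found. Gene names have moved since the array was designed. Both probes filed as Kng1 carry an accession that the current RefSeq annotation (GRCr8, used for names) calls Kng2, with Kng1, Map1 and Tkg among its synonyms. The accession now called Kng1 stood under another file name, described as similar to alpha-1 major acute phase protein prepeptide. After this update there were 8 probes for all 5 genes, of 35535 names on the array, with 26 spots per array, and current names are used throughout. All 8 probes passed the filter on dim spots.

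Kininogens are secreted precursor proteins from which kallikreins cut the short kinin peptides, and they also carry cystatin domains that inhibit cysteine proteases. Kinins act on a pair of G protein-coupled receptors, B2, which most tissues carry at all times, and B1, which is known for its induction in inflamed tissue, and both widen vessels and make them leak. The angiotensin-converting enzyme, abundant on the endothelium of the lung, cuts angiotensin I to angiotensin II and destroys bradykinin. In rats T-kininogen, a liver-made acute phase protein, is a further form of kininogen. The current synonyms of Kng2 hold names of T-kininogen (Kngt, Tkg) beside those of K-kininogen (Kngk). The kininogen members are thus not set apart from T-kininogen here.

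Rats received cobalt (12.5 mg per kg body weight) or saline for 7 days and then spent 6, 12, 24 or 48 h at a simulated 30000 ft, and lung RNA was hybridized to 2-colour arrays of 60-base probes. One channel carried lung of 1 pretreatment and duration, the other its own 0 h control, so that each of the 8 conditions is 1 array, with no replicate. The 4 cobalt arrays, all on slide 2, carried hypoxia in Cy3, and the 4 saline arrays, all on slide 1, carried it in Cy5. Cobalt and saline thus cannot be told apart from slide, scan and dye. Strain, sex, age and the number of animals behind an RNA are not in the labels, and the p-values given for other genes measure only the spread between arrays, without that of the 0 h RNA. Between 57.7% and 72.7% of the spots of a channel were well above background. The 7 lung epithelium markers and the 11 endothelium markers were well above background in every channel of all arrays.

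The probes come first because 2 of the kininogen probes are nearly the same sequence. The Kng1 probe (rn3, chr11:80073537-80074647, minus strand) and a Kng2 probe (chr11:80181962-80182992, plus strand) align over 58 bases with 54 matches, after a shift of 2 bases, and share an exact run of 27 bases. Capitals mark the 4 mismatches in the lines below. The spans of both in the genome are longer than the probe, so each crosses at least 1 intron.
Kng1: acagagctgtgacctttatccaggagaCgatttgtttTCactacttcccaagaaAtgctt
Kng2: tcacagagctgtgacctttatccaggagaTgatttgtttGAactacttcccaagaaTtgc
With so few mismatches, signal of one transcript on the probe of the other could not be separated, and the values of these probes are not independent measurements. The other Kng2 probe (chr11:80185178-80185237, plus strand) lies elsewhere in the transcript. Its longest exact run in common with the Kng1 probe was 5 bases, and no other probe of the array shared 20 bases in a row with it. A probe for Kng2l1, a gene that the files describe as K-kininogen (chr11:80230520-80230579, plus strand), shared no such run either.
Kng2, other probe: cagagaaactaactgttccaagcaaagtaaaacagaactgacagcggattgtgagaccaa
Kng2l1: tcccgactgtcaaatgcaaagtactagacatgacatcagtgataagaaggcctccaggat

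Both kininogens had far more signal in hypoxic lung than at 0 h on every array. Kng1 measured 1454, 637, 2083 and 1180 signal units after 6, 12, 24 and 48 h in hypoxic lungs of cobalt rats, against 258, 231, 306 and 256 in the 0 h channel of the same arrays. In saline rats it measured 1665, 880, 530 and 1392 in hypoxic lungs, against 213, 188, 169 and 213 at 0 h. The groups did not overlap under either pretreatment, and the lowest hypoxia signals were those of cobalt 12 h and saline 24 h. The share of all genes with signals apart in this way was not counted. Nothing is read from such separation here or below. The log2 ratios of hypoxia over 0 h were 2.49, 1.47, 2.77 and 2.20 in cobalt and 2.97, 2.22, 1.64 and 2.71 in saline. Their average was 2.31 ± 0.16 (limma estimate ± SE over 8 arrays, 4.96-fold), rank 11 from the top among 24141 genes.

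Kng2 followed the same course. Its brighter probe gave 2816, 1153, 3920 and 2432 units at 6, 12, 24 and 48 h in hypoxic lungs of cobalt rats, against 584, 477, 619 and 572 at 0 h. In saline rats the probe gave 4185, 1953, 1258 and 2928 in hypoxia, against 485, 404, 395 and 457 at 0 h. Again each hypoxia signal lay above every 0 h signal. The average log2 ratio was 2.25 ± 0.17 (4.77-fold, rank 13), with 2.07 ± 0.58 over the cobalt and 2.43 ± 0.61 over the saline arrays (mean ± SD over the 4 durations).

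The other Kng2 probe shares no long run with the Kng1 probe, but probes were compared only with probes. Whether Kng1 RNA binds it elsewhere in the transcript was not tested. This probe had ratios at least as high. It measured 1980, 782, 2294 and 1270 units in hypoxic lungs of cobalt rats at 6, 12, 24 and 48 h, against 258, 248, 267 and 249 at 0 h. In saline rats the values were 4751, 2612, 1328 and 2906 in hypoxia, against 319, 302, 304 and 308 at 0 h. Its ratios ran between 1.66 and 3.90, with an average of 2.80 (6.97-fold), and were above those of the brighter Kng2 probe on all 8 arrays. Ratios above 0 on all 8 arrays, as for Kng1 and Kng2, were found for 6.74% of all genes tested. The members were picked for these ratios, and nothing is read from that share.

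**Figure D1:**
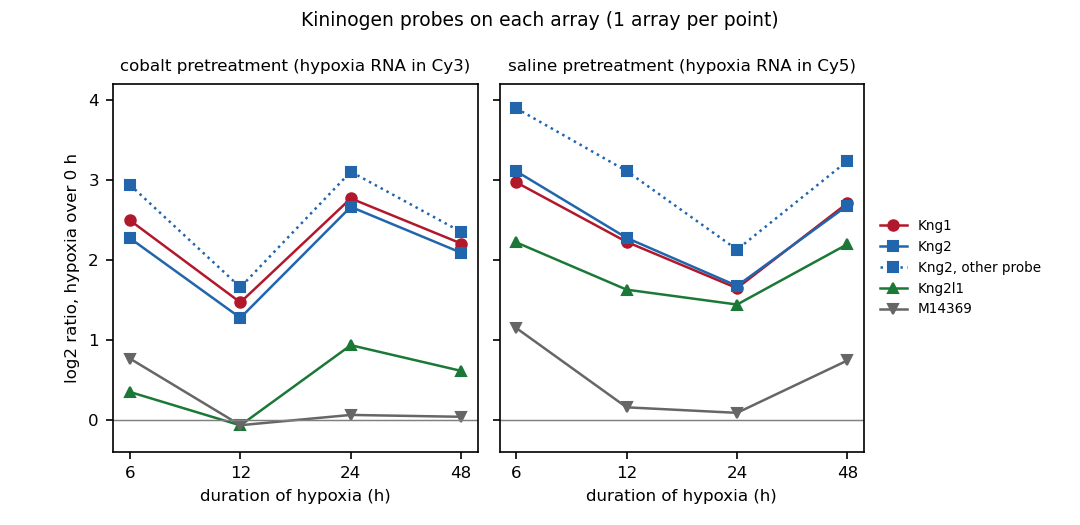
Log2 ratio of hypoxia over 0 h (vertical axis) by duration (horizontal axis, not to scale) for 5 kininogen probes, cobalt arrays left and saline arrays right, 1 array per point. The Kng1 line and both Kng2 lines stay at 1.27 or above on all arrays and dip at 12 h in cobalt and at 24 h in saline.

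The order of durations differed between the pretreatments and was shared by the probes. In cobalt rats the Kng1 probe and both Kng2 probes had their highest ratio at 24 h, then 6 h, 48 h and 12 h. In saline rats the order was 6 h, 48 h, 12 h and 24 h for the same 3 probes. With 1 array per duration, no neighbours in these orders can be told apart beyond a spread. Over the 8 arrays the ratios of Kng1 and the brighter Kng2 probe had a Pearson correlation of 0.98, and those of both Kng2 probes one of 0.97, as a description of arrays that share 0 h RNA, slide and dye. Averaged over both pretreatments, the mean of 24 and 48 h minus that of 6 and 12 h was 0.04 ± 0.33 for Kng1 and 0.04 ± 0.32 for Kng2 (log2, SE). With scaling of ratios between arrays the late minus early differences were 0.57 and 0.56.

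By pretreatment, Kng1 averaged 2.23 ± 0.56 in cobalt and 2.39 ± 0.58 in saline (SD over 4 durations). Among all genes 20.8% were called in cobalt (8.53% higher) and 40.1% in saline (21.8% higher). The cobalt minus saline difference of the log2 ratio was -0.15 ± 0.33 for Kng1 and -0.36 ± 0.34 for Kng2. These differences hold the dye as well, and they depend on how each array is normalized. With median centring in place of loess the values were -1.43 and -1.96, while the median of all genes moved to -0.78. With scaling between arrays they turned to 0.64 and 0.42.

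Kng2l1, which is no member, rose less and differed more between the pretreatments. It measured 1264, 943, 2264 and 1831 units at 6, 12, 24 and 48 h in hypoxic lungs of cobalt rats, against 996, 992, 1188 and 1201 at 0 h. In saline rats it had 3049, 1973, 1814 and 3161 in hypoxia, against 655, 639, 669 and 690 at 0 h. Hypoxia and 0 h signals overlapped on the cobalt arrays and stood apart on the saline arrays. The averaged log2 ratio was 1.16 ± 0.12 (limma, adjusted p = 0.000242), made up of 0.45 ± 0.17 in cobalt and 1.87 ± 0.17 in saline. The difference of -1.42 ± 0.24 passed the test (limma, adjusted p = 0.00269), as did 30.2% of all genes in that comparison. A dye effect or a slide effect on this probe cannot be told apart from the pretreatment. Its 0 h signal alone was higher on every cobalt array than on every saline array.

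A further probe, for the accession M14369 (rn3, chr11:80067245-80067296, minus strand), stands for the 3′ end of K-kininogen genes according to the files. It was dim, with 173, 104, 117 and 118 units in hypoxic lungs of cobalt rats at 6, 12, 24 and 48 h and 221, 90.1, 93.2 and 157 in those of saline rats. At 0 h it measured 102 to 115 units in cobalt and 81.0 to 99.9 in saline rats. Its ratios of 0.76 at cobalt 6 h, 1.15 at saline 6 h and 0.74 at saline 48 h stood above the other 5, which lay between -0.07 and 0.15. Their average was 0.36, against 2.31 for the Kng1 probe, which lies on the same strand (chr11:80073537-80074647). Whether this dim probe reads Kng1 RNA was not tested. In the current assembly Kng1, Kng2 and Kng2l1 lie on chromosome 11 within less than a megabase of each other, Kng1 on the minus strand and the others on the plus strand.

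**Figure D2:**
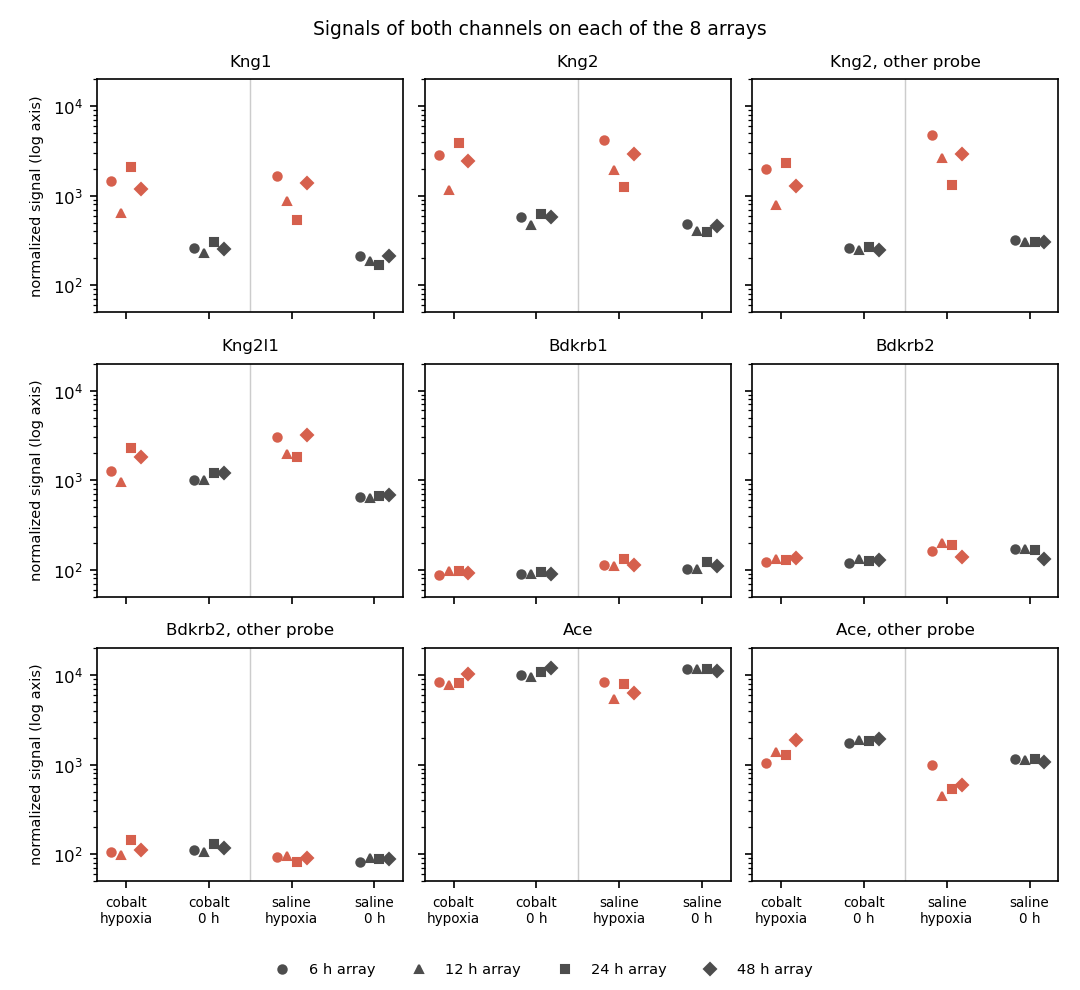
Normalized signal (log axis) of the hypoxia channel (red) and the 0 h channel (grey) for the member probes and Kng2l1, cobalt left and saline right within each panel, with 1 marker per array. The 3 panels of Kng1 and Kng2 show hypoxia signals above all 0 h signals, the Bdkrb1 and Bdkrb2 panels stay below 200 units, and the brighter Ace probe lies between 5453 and 11869.

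Since the kininogen probes moved together, the windows from 250 bases before to 50 after the annotated starts were read from RefSeq (GRCr8), which held them for Kng1, Kng2, Kng2l1, Bdkrb1 and Ace. The windows of the 3 kininogen genes are copies of one another: Kng1 and Kng2 matched at 143 of 144 aligned positions, and Kng1 and Kng2l1 at 258 of 279. The annotated start of Kng2 lies further upstream in this shared stretch. Acute phase genes are known to be driven by C/EBP and STAT factors, and HIF binds ACGTG, so these motifs were searched on both strands. For C/EBP, 4 forms were used, TTNNGNAAT, TTNNGNAAG, TGNNGNAAT and TGNNGNAAG, shown in capitals below, and for STAT TTCNNNGAA. Overlaps between matches were allowed.
Kng1 promoter (chr11:91340099-91340398, minus strand): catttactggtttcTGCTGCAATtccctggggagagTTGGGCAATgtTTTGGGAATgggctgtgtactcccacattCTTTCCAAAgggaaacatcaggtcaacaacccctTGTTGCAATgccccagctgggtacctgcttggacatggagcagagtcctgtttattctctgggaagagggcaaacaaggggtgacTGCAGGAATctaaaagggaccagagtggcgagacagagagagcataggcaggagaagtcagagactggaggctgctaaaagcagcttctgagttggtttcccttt
Kng2 promoter (chr11:91418220-91418519, plus strand): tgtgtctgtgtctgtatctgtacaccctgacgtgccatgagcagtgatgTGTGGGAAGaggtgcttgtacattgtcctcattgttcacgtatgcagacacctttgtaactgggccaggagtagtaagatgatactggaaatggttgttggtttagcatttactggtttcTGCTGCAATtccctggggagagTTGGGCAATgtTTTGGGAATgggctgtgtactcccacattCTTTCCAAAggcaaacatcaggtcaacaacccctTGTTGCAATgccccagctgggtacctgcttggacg
Kng2l1 promoter (chr11:91483169-91483468, plus strand): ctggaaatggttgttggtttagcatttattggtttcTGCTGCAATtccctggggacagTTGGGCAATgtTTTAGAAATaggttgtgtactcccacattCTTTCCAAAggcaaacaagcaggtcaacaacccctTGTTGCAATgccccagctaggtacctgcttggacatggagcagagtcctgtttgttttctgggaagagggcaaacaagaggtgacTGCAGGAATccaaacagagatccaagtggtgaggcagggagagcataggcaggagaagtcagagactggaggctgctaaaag
Each of these 3 windows held 6 matches of the C/EBP forms, and 0.0388% of 33469 promoter windows (13, these 3 included) held at least that many. A single match was common, being found in 45.4% of all windows. Since the windows are near copies, this counts as 1 stretch of sequence, not 3. The Bdkrb1 window held 1 match and the Ace window 0. The Kng2 window held 2 matches of ACGTG, both upstream of the part shared with Kng1, and at least 2 were found in 7.62% of windows. The STAT form was in the Kng2l1 window once and in 8.87% of all windows. A second annotated Kng2l1 start, whose window is chr11:91483268-91483567, held 3 matches of the C/EBP forms, a number reached by 3.61% of windows. A match is a run of letters, not a bound site.

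Other acute phase genes stood higher in hypoxia as well. Of 19 listed genes and regulators, 16 were tested, 8 rose, 0 fell and 8 did not pass, where 15.7% of all genes were called higher and 16.3% lower (32% in all). Their median log2 ratio was 0.45, against -0.00141 for all genes. The haemoglobin scavenger Hp rose by 1.25 ± 0.20 (adjusted p = 0.00184), the apolipoprotein Saa4 by 1.60 ± 0.28 (adjusted p = 0.00265) and Stat3, the transcription factor that carries the interleukin 6 signal, by 0.54 ± 0.11 (adjusted p = 0.00517). With the mean over a gene's probes Saa4 had 0.96 and Stat3 did not pass (0.27, adjusted p = 0.0671). Il6st, the shared receptor chain of that cytokine family, rose by 0.68 ± 0.14 (adjusted p = 0.00513), with 1.30 in cobalt and 0.07 in saline. The listed regulators Il6r (-0.22), Socs3 (0.05), Cebpb (-0.08) and Cebpd (0.52) did not pass on average. The protease inhibitor A2m had the average of 1.50 ± 0.42 (adjusted p = 0.0214), with single arrays from 0.04 at saline 24 h to 4.11 at cobalt 24 h. Without the cobalt 6 h array 5 of the 16 rose and A2m no longer passed (adjusted p = 0.0519), nor did it without saline 6 h (0.0502) or saline 12 h (0.0564). Il6 itself was well above background on 1 array and was not tested.

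Kininogen mRNA is best known from liver, so liver markers are given beside these ratios. On the cobalt 6 h array the albumin probe (Alb) measured 2321 units in hypoxia and 51.3 at 0 h. Fgb, Hrg, Apoa1 and Ahsg, liver genes picked after their values were seen, had ratios of 2.49, 1.38, 1.13 and 0.94 there. At 0 h Alb, Fgb and Ahsg were each well above background on 1 of 8 arrays, Hrg on 3 and Apoa1 on 6, so most of these ratios are against a channel at background. On the other 7 arrays Alb in hypoxia lay between 65.4 and 126 units, and it was well above background in hypoxia on 4 arrays in all. The highest kininogen ratio in cobalt, at 24 h, came from an array on which Alb was not well above background in hypoxia (65.4 units). Without the cobalt 6 h array the averages were 2.27 ± 0.18 for Kng1 and 2.22 ± 0.19 for Kng2.

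Over the 12 hepatocyte markers 6 were tested, of which 2 rose, 1 fell and 3 did not pass. Serpina1 rose by 0.92 ± 0.09 and Rbp4 by 0.64 ± 0.06. Cyp2e1 fell, at -1.12 ± 0.37 (limma, adjusted p = 0.0435), with -1.93 in cobalt and -0.31 in saline. Tf did not pass, with -0.23 in cobalt and 1.00 in saline. Without the cobalt 12 h array 3 rose and 0 fell. Of all genes 15.7% were called higher and 16.3% lower. Tat and Cps1 were well above background on 0 arrays, and Serpina1, Cyp2e1, Tf and Rbp4, which lung expresses too, on all 8. The signal was also summed over all 6 tested markers, Alb and Apoa1 included. In cobalt rats the sum was 5629 to 8372 in hypoxia, against 6155 to 6340 at 0 h. In saline rats it was 5436 to 9199 in hypoxia, against 3787 to 4059 at 0 h. The part of liver RNA in the kininogen ratios was not tested on any array, and the dim Alb probe does not measure it.

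**Figure D3:**
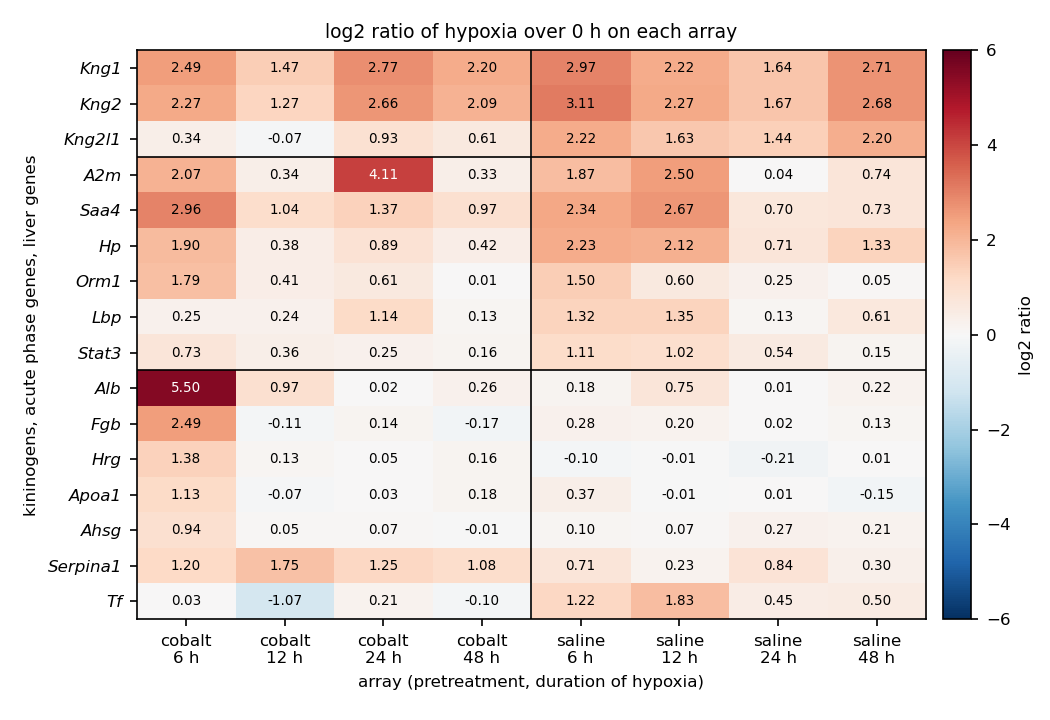
Log2 ratio of hypoxia over 0 h (colour and number) for kininogens, 6 acute phase genes and 7 liver genes (rows) on each array (columns, cobalt left of saline). Alb reaches 5.50 on cobalt 6 h alone, with the 0 h channel well above background on 1 of 8 arrays. Kng1 and Kng2 are at 1.27 or above on all arrays and peak in cobalt at 24 h. The liver genes were picked after their values were seen.

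The receptors did not stand out. Bdkrb1, the inducible receptor (rn3, chr6:129765625-129765684), measured 88.2, 97.4, 97.9 and 91.4 units in hypoxic lungs of cobalt rats at 6, 12, 24 and 48 h, against 90.2, 89.7, 93.2 and 89.0 at 0 h. In saline rats it measured 112, 110, 133 and 113 in hypoxia, against 102, 102, 123 and 110 at 0 h. Signals of hypoxia and 0 h overlapped under both pretreatments. The average log2 ratio was 0.07 ± 0.03. With the scanner software's log ratio it was 0.34 and with median centring 0.22.

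Bdkrb2, the constitutive receptor, has a probe spotted 10 times on each array (chr6:129751888-129751947). It measured 121, 132, 127 and 135 units in hypoxic lungs of cobalt rats at 6, 12, 24 and 48 h, against 119, 132, 125 and 129 at 0 h. In saline rats it had 161, 197, 187 and 139 in hypoxia, against 168, 171, 168 and 133 at 0 h. Hypoxia and 0 h overlapped, and the SD between the spots of an array, 0.07 to 0.11 on the log2 scale, was as large as most of its ratios, which ran from -0.06 to 0.20. The average was 0.06 ± 0.04. A dimmer probe of Bdkrb2 (chr6:129754228-129754286), with 82.5 to 143 units in hypoxia, had ratios from -0.10 to 0.19 and an average of 0.01, and was not well above background in hypoxia at saline 24 h or at 0 h on the saline 6 h array. All receptor signals lay near the dim end, the offset added before logs being 50, which shrinks ratios of dim probes toward 0.

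Ace was lower in hypoxia on every array. Its brighter probe (rn3, chr10:95396117-95396176) measured 8318, 7821, 8236 and 10285 units in hypoxic lungs of cobalt rats at 6, 12, 24 and 48 h, against 9935, 9595, 10771 and 11869 at 0 h. In saline rats it measured 8410, 5453, 7975 and 6363 in hypoxia, against 11788, 11651, 11656 and 11023 at 0 h. Hypoxia and 0 h overlapped between cobalt arrays but not between saline arrays. The log2 ratios were -0.26, -0.29, -0.39 and -0.21 in cobalt and -0.49, -1.10, -0.55 and -0.79 in saline. Their average was -0.51 ± 0.07 (a ratio of 0.703). Ratios below 0 on all 8 arrays were found for 6.09% of all genes.

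The other Ace probe (chr10:95395122-95395181), spotted 10 times, gave -0.74, -0.44, -0.52 and -0.06 in cobalt and -0.23, -1.32, -1.11 and -0.85 in saline. Its average was -0.66, below 0 on every array, and its spots within an array spread by an SD of 0.02 to 0.08. The probes disagreed on the 6 h arrays, where the first was lower in saline and the second lower in cobalt. On the brighter probe the 4 cobalt ratios all lay above the 4 saline ratios, as for 13.1% of all genes, and the difference was 0.44 ± 0.14. On the other probe the pretreatments overlapped at the same mean difference of 0.44. With median centring the Ace response was 0.41 in saline and -1.41 in cobalt, while the medians of all genes were 0.28 and -0.50, so the direction in saline rests on the loess step. In cobalt the response was below 0 in all 19 alternatives (-1.41 to -0.25). The average kept its sign, at -0.58 to -0.45 over all alternatives.

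**Figure D4:**
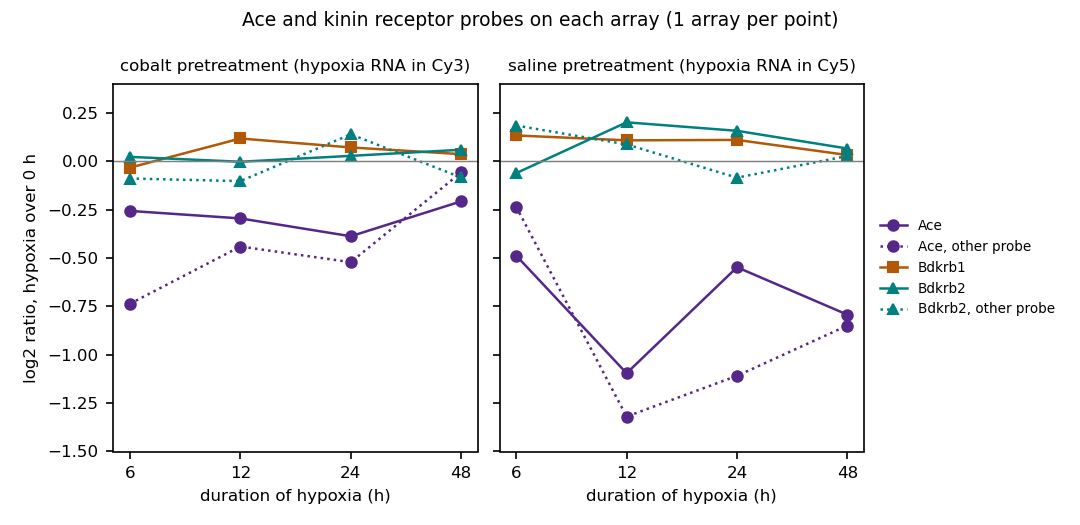
Log2 ratio of hypoxia over 0 h (vertical axis) by duration (horizontal axis, not to scale) for 2 Ace probes, 1 Bdkrb1 probe and 2 Bdkrb2 probes, cobalt arrays left and saline arrays right, 1 array per point. Both Ace probes are below 0 throughout, lowest at saline 12 h, and the receptor probes stay between -0.10 and 0.20.

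Ace is made mainly by endothelium. Of 11 endothelium markers 0 rose, 6 fell and 5 did not pass on average, with a median log2 ratio of -0.24. In that average 15.7% of all genes were called higher and 16.3% lower. In cobalt 2 rose (Emcn and Tie1), 2 fell and 7 did not pass, with a median of -0.02, where 12.3% of all genes were lower. In saline 0 rose, 8 fell and 3 did not pass, with a median of -0.92, where 18.3% of all genes were lower. Their summed signal was 89730 to 112100 in hypoxic lungs of cobalt rats, against 103900 to 108200 at 0 h, and 58690 to 82800 in those of saline rats, against 114200 to 135800 at 0 h. In whole lung RNA, fewer cells of a type and less RNA per cell cannot be told apart. The part of endothelial content in the Ace ratio was not tested. Smooth muscle markers rose on average in 5 of 6 cases and T and NK cell markers fell in 4 of 6, beside the same shares of all genes (15.7% and 16.3%).

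The level of both channels together, cobalt minus saline, is not the ratio by which the members were chosen, and it was tested. It is not independent of that ratio, since the hypoxia signal enters both. The 0 h RNA is shared by the arrays of a pretreatment, so the p-values measure only the spread between arrays. The mean log2 level of Bdkrb1 was 6.52 ± 0.05 on cobalt and 6.82 ± 0.13 on saline arrays (SD, n = 4 each), a difference of -0.29 ± 0.07 (limma, adjusted p = 0.00799), and it stayed called in all 18 alternatives, at -0.74 (with the software's log ratio) to -0.23. Bdkrb2 stood at 6.99 ± 0.07 on cobalt and 7.36 ± 0.19 on saline arrays, a difference of -0.37 ± 0.10 (limma, adjusted p = 0.0129). Both called members were lower on the cobalt arrays. In this comparison 45% of all genes were called, 21.7% higher and 23.3% lower, so 2 of 5 members is near the background. Cobalt and saline arrays are different slides scanned apart, and slide and pretreatment cannot be told apart.

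The dimmer Bdkrb2 probe gave the opposite order, with 6.84 ± 0.18 on cobalt and 6.47 ± 0.06 on saline arrays, and the mean over both probes differed by 0.00046. The lines below show the probes that disagreed, the brighter first.
Bdkrb2: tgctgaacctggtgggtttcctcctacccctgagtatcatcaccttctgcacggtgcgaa
Bdkrb2, other probe: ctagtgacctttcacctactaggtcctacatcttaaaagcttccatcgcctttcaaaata
Kng1 differed by 0.35 ± 0.25 (adjusted p = 0.274), Kng2 by 0.19 ± 0.25 (adjusted p = 0.557) and Ace by 0.09 ± 0.10 (adjusted p = 0.513), none of which passed in limma. The other probes of Kng2 and Ace differed from these, with 9.25 ± 0.37 on cobalt and 9.81 ± 0.39 on saline arrays for Kng2, and 10.62 ± 0.21 and 9.69 ± 0.26 for Ace. With the mean over probes, Ace passed at 0.51 (adjusted p = 0.00571).

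The list for kinin formation held prekallikrein, tissue kallikreins, contact factors, their inhibitors and kininogen relatives such as Kng2l1. Of its 16 genes 8 were tested, 2 rose, 1 fell and 5 did not pass, with a median of 0.06. Of all genes 15.7% were called higher and 16.3% lower. With median centring 5 of the 8 were higher and 1 lower, with a median of 0.31. The coagulation protease F11, a homologue of prekallikrein, had a log2 ratio of -0.62 ± 0.05 and fell (adjusted p = 4.14e-05), with -1.77 by the software's log ratio. Factor XII (F12), which activates prekallikrein, rose by 0.31 ± 0.09 (adjusted p = 0.0263), a call that ended without saline 6 h (0.29, adjusted p = 0.0588) or saline 12 h (0.29, adjusted p = 0.0634). F12 had 0.84 with the software's log ratio (adjusted p = 0.0551) and with the series matrix (adjusted p = 0.0555). The other gene that rose was Kng2l1. Tissue kallikrein Klk1 had -0.12 ± 0.06 (limma, adjusted p = 0.111) and -0.17 without cobalt 48 h (adjusted p = 0.0225). With median centring it turned to 0.17 (limma, adjusted p = 0.0488). Its probe was well above background on 4 of 8 arrays in each channel. The strict filter on dim probes left 2 genes of this list. Prekallikrein itself, Klkb1, was well above background on 0 arrays.

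Kinin-degrading peptidases went both ways. Of 14 tested, 2 rose, 4 fell and 8 did not pass, with a median of -0.11, beside 15.7% of all genes higher and 16.3% lower. The number lower was 6 with median centring and 7 with the mean over a gene's probes. The aminopeptidases P, which remove the first residue of bradykinin, split: cytosolic Xpnpep1 rose by 0.45 ± 0.05 (adjusted p = 0.000265) and membrane-bound Xpnpep2 fell, with -0.57 ± 0.10 (adjusted p = 0.00336). Prolyl endopeptidase Prep rose by 0.46 ± 0.06 (adjusted p = 0.000808). Neprilysin (Mme), like Ace a membrane enzyme that destroys bradykinin, had a ratio of -0.62 ± 0.15 (adjusted p = 0.0121) and was below 0 on all 8 arrays. When 1 array was left out, between 2 and 4 of the list fell.

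Of 10 renin-angiotensin genes tested, 0 rose, 1 fell and 9 did not pass, with a median of 0.01. Of all genes 15.7% were called higher and 16.3% lower. Angiotensinogen (Agt) had -0.32 ± 0.12 (adjusted p = 0.0744) and passed without cobalt 6 h (-0.39, adjusted p = 0.0481) or saline 6 h (-0.39, adjusted p = 0.0406). The receptor genes Agtr1a, at -0.21 ± 0.09 (adjusted p = 0.0955), and Agtr1b, at -0.09 ± 0.04 (adjusted p = 0.0837), did not pass, but Agtr1a did without cobalt 48 h (-0.28, adjusted p = 0.0315) and Agtr1b without saline 48 h (-0.12, adjusted p = 0.0383).

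Downstream of the receptors, 18 genes were tested, of which 6 rose, 3 fell and 9 did not pass, with a median of 0.08. Of all genes 15.7% were called higher and 16.3% lower. Median centring gave 4 of the list higher and 5 lower. Prostacyclin synthase (Ptgis) rose by 1.14 ± 0.11 (adjusted p = 0.000163), prostaglandin E synthase (Ptges) by 0.78 ± 0.14 (adjusted p = 0.00347) and endothelial nitric oxide synthase (Nos3) by 0.50 ± 0.13 (adjusted p = 0.0182). With the software's log ratio Ptges had 1.38. The Nos3 call ended with median centring (0.27, adjusted p = 0.162). Among the signalling genes that fell were the phospholipase Plcb4, at -0.80 ± 0.09 (adjusted p = 0.000417), and the inositol trisphosphate receptor Itpr2, at -0.27 ± 0.06 (adjusted p = 0.00633), which did not pass with the software's log ratio (-0.14, adjusted p = 0.333).

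Cell-surface partners of high molecular weight kininogen had 2 of 6 higher, 2 lower and 2 not passing, with a median of -0.12. Of all genes 15.7% were called higher and 16.3% lower. The urokinase receptor (Plaur) rose by 0.53 ± 0.12 (adjusted p = 0.00797) and the globular C1q receptor (C1qbp) by 0.37 ± 0.06 (adjusted p = 0.00247). Of the integrin Mac-1, the beta chain Itgb2 fell, with -0.64 ± 0.07 (adjusted p = 0.000367). Its alpha chain Itgam had -0.57 ± 0.17 (adjusted p = 0.0298), a call that ended when any single array other than cobalt 24 h or saline 48 h was left out (adjusted p from 0.0625 to 0.0821).

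The named genes whose 8 ratios ran most like a member's are given as a description, since all arrays of a pretreatment share 0 h RNA, slide and dye. They were sought among 3424 named genes (3423 for each kininogen) whose ratios span at least 1. For Kng1 they were Kng2 (r = 0.98), C1qc (0.88), Gpihbp1 (0.86) and Plaur (0.84), and for Kng2 they were Kng1 (0.98), Plet1 (0.92), Mcemp1 (0.90) and Prg4 (0.88). Except for Kng2, Kng1 and Plaur these had averages between -0.30 and 0.20, so the likeness lies in the order of arrays and not in the size. Ace ran with the endothelial adhesion molecule Mcam (0.98), Nes (0.97) and Shb (0.95), although Mcam averaged 0.24 where Ace averaged -0.51. Bdkrb1 was matched by Tspan4, Hspb1 and Lgi4 (0.80 to 0.87) and Bdkrb2 by Rint1, Tcea2, Ifna4 and Tinf2 (0.94 to 0.96).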

How the data were processed

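Lung RNA of 8 conditions was measured on 8 2-colour arrays. Agilent Feature Extraction 9.5.1.1 wrote the scanner files, per the file headers. Their spot and background signals are deposited as intensity, and the deposited LogRatio is a log10 ratio, red over green. The deposited matrix has log2 ratios: its columns matched the software's hypoxia over 0 h ratio (r of 0.999991 or more, slope 1, median 0), which settled their scale and direction. Array notes name probe positions on rn3.

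RefSeq (GRCr8, no coordinates converted) gave names to 10735 of 41012 probes through the accession, 5512 through the symbol and 3719 through a synonym, and 21046 kept the file's name. In limma 3.58.1 (R 4.3.3, package data.table in version 1.17.8), background was treated with normexp, offset 50, and ratios with loess. Mean intensities were set to equal quantiles between arrays. The signals in the text are recomputed from the normalized ratio and mean. Spots marked as outliers were dropped (208 to 294 per array), and up to 277 red and 2 green saturated spots were kept. A probe was kept if 4 or more arrays had it well above background in a channel (28419), and for 24141 genes the brightest probe was used, with several to choose from in 3476. limma with a variance trend over mean intensity and Benjamini-Hochberg adjustment called genes under 0.05. The 0 h channels of a pretreatment correlated at 0.992 or more. Their RNA counts as 1 sample, so its spread enters no p-value.

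The members and gene lists were chosen with earlier results of these data known. Genes named are the members, up to 4 genes of lowest p per list, the defining genes Klkb1, Mme, Agt, Nos3, Plaur, Cst3 and A2m, and the 4 most like each member, some of which are not reported here. Liver genes shown per array were picked after their values were seen. The fits were tested on simulated data. Figures were drawn with matplotlib 3.10.9. Tried as alternatives were median centring, scaling between arrays, no background subtraction, the software's ratio, the matrix, a strict filter or none, averaging a gene's probes, keeping outlier spots, no variance trend, a duration factor, and each array left out in turn.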

Additional observations from a re-analysis of the deposited data

Results flagged for a closer look

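Of 30 named genes outside the members, 14 had a response that differed between cobalt and saline rats (limma, interaction of pretreatment, adjusted p under 0.05, where 30.2% of all genes passed). Dye, slide and scan differ in the same way, so none of these differences can be assigned to the pretreatment.

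Lower in cobalt than in saline were the ratios of Kng2l1 (-1.42, with 0.45 in cobalt and 1.87 in saline), Itgb2 (-1.05), Cst6, a cystatin (-0.92), Agtr1a (-0.82), Prep (-0.46) and Itpr2 (-0.36).

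Higher in cobalt were those of Itgam (1.36, with 0.11 in cobalt and -1.25 in saline), Il6st (1.24), Xpnpep2 (1.13, with -0.0045 in cobalt and -1.13 in saline), Fetub (0.98), Ptgis (0.95), Agt (0.86), Nos3 (0.79) and Klk1 (0.58).

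The adjusted p ran from 0.00101 for Itgb2 to 0.0492 for Nos3.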

How the results depend on the processing

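The averages of Kng2, Bdkrb2 and Ace moved by less than 1 SD between arrays in all 19 alternatives. That of Kng1 was 2.85 with the software's log ratio and with the series matrix, and that of Bdkrb1 was 0.34 in both and 0.22 with median centring. Left-out arrays gave 2.21 to 2.44 for Kng1, 2.14 to 2.39 for Kng2 and -0.55 to -0.45 for Ace. Median centring turned the Ace response in saline to 0.41 and its cobalt minus saline difference to -1.82. The mean over probes turned the level differences of Kng2 to -0.19 and of Bdkrb2 to 0.00046 and let that of Ace pass at 0.51, and scaling between arrays turned that of Ace to -0.087. The cause was not tested.

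With median centring, counts of called genes were 5944 lower in the average (3930 with loess), 11993 higher and 2272 lower in saline (5258 and 4426 with loess), 19421 in cobalt (4900 higher, 14521 lower, against 5025, 2060 and 2965 with loess) and 19054 for cobalt minus saline (14961 lower, against 7280 and 4215 with loess). Left-out arrays gave 2251 to 5600 genes in cobalt (1000 to 2318 higher, 1251 to 3282 lower), fewest without cobalt 24 h. For late minus early, limma called 0 genes, 3108 at an unadjusted p under 0.05 and 0 to 3 without single arrays. Duration as a factor, which pairs the pretreatments by duration, moved no count by over 1.5 times. Of 31 results on other named genes, 20 kept their call and sign in all alternatives, and Agtr1a (0.0075, mean over probes), Agtr1b (0.021, median centring) and Klk1 (0.17, median centring) turned sign. The series matrix holds no levels. With 1 array per condition, precision is limited by the number of arrays, and for Bdkrb1 and Bdkrb2 by signals near background.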

Other observations

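The kininogen genes lie in a row of cystatin-superfamily genes on rat chromosome 11. In GRCr8 coordinates Kng1 spans 91317354 to 91340148, Kng2 91418470 to 91440841 and Kng2l1 91483419 to 91507564, followed by Hrg, Fetub and Ahsg, which ends at 91632583. The neighbours did not share the size of the kininogen ratios. The liver-derived protease inhibitor Fetub rose by 0.71 ± 0.11 (limma, adjusted p = 0.00156), with 1.21 in cobalt and 0.22 in saline. The histidine-rich glycoprotein Hrg had 0.18 ± 0.13 (adjusted p = 0.322) and the fetuin Ahsg 0.21 ± 0.09 (adjusted p = 0.111), both highest on the cobalt 6 h array. Of the 8 cystatin relatives tested, 4 rose and 1 fell, with a median of 0.21, where 15.7% of all genes were called higher and 16.3% lower. Intracellular Cstb rose by 0.34 ± 0.06 (adjusted p = 0.00242) and the secreted Cst6 by 1.10 ± 0.14 (adjusted p = 0.00052). Cystatin C (Cst3) had 0.21 ± 0.07 (adjusted p = 0.0337), a call that ended without cobalt 12 h (0.0928), cobalt 24 h (0.0989) or saline 6 h (0.0634), and with duration as a factor (0.0623).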
